A study of Mus musculus with 2 samples.

Results

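The NR4A genes are Nr4a1, Nr4a2 and Nr4a3, 3 of the 21755 protein-coding genes on chromosomes 1 to 19 and X, and they were taken by name from GENCODE M21. Around each gene, all DNase peaks inside it and within 100 kb to either side were examined. These were 36 of 46031 peaks in replicate 1 and 61 of 87387 peaks in replicate 2. A peak is a region where DNase I, an enzyme that cuts accessible DNA, cut more often than nearby. The material was adrenal gland from female B6CASTF1/J mice aged 4 days. The labels give 2 biological replicates of this 1 group, with no treatment and no second genotype. B6CASTF1/J animals are hybrids of the first generation, whose parental alleles were not separated here, and the sample descriptions name 3 females per sample under a single donor identifier. With 1 group of 2 libraries there is no test, so values are described per library, replicate 1 first.

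NR4A proteins are nuclear receptors whose ligand pocket is filled by their own side chains, so their activity follows largely from how much of each protein is made. All are immediate early genes. Cyclic AMP signalling activates the factor CREB, which binds the cyclic AMP response element (CRE), while calcium signals reach the genes through MEF2 factors. In the adrenal cortex, corticotropin and angiotensin II induce them, and the receptors act at genes of steroid synthesis. Nr4a2 is also required for the formation of midbrain dopamine neurons.

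The regions on which the description turns are printed 5′ to 3′ on the stated strand of GRCm38.p6, the build of mm10. They are the most accessible promoter of each gene, a second promoter inside Nr4a2, the single distal peak with an exact CRE, and the strongest peak at Nr4a3. Capitals mark the CRE half-site, TGACG or its reverse complement CGTCA. Where both overlap they form the exact CRE, TGACGTCA. Each promoter stretch ends at or before the base in front of the transcription start site (TSS). The promoter of Nr4a1 is chr15:101266581-101266845 on the plus strand, and the upstream and internal promoters of Nr4a2 are chr2:57124081-57124300 and chr2:57115039-57115120 on the minus strand. The promoter of Nr4a3 is chr4:48044981-48045152 on the plus strand, as are the region downstream of Nr4a1, chr15:101279681-101279880, and the region upstream of Nr4a3, chr4:48043321-48043560.
Nr4a1 promoter: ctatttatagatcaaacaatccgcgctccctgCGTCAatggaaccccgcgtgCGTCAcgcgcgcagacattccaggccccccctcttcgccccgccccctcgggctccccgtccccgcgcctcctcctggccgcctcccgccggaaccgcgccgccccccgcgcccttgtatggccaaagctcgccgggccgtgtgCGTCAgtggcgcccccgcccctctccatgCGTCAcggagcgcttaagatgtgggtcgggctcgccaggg
Nr4a2 upstream promoter: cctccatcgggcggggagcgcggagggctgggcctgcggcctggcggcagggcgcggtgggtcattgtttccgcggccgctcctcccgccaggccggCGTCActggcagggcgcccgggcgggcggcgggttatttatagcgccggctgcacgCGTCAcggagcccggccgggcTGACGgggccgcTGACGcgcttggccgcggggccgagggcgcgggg
Nr4a2 internal promoter: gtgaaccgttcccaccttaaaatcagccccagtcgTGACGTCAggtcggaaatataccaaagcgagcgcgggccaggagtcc
Nr4a3 promoter: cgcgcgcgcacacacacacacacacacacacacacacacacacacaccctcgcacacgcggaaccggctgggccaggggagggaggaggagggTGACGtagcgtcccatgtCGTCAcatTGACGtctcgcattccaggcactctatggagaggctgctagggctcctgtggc
Nr4a1 downstream region: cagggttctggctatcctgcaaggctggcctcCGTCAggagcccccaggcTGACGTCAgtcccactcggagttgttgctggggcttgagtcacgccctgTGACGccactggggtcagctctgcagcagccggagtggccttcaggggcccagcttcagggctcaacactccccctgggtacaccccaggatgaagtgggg
Nr4a3 upstream region: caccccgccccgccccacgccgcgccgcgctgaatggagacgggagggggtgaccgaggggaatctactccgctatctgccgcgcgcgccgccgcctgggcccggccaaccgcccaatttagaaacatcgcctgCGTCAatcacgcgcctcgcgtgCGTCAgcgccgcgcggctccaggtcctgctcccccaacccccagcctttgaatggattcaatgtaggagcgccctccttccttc

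Several facts of the whole data set bear on these genes. Replicate 2 held more peaks and mostly higher signal values, and how the signal was scaled is not given in the sources. Signal is therefore also given as a percentile among all peaks of its own library. The signal of the median peak was 0.930 in replicate 1 and 0.985 in replicate 2. Of the cortex markers, 2 of 6 had a peak within 1 kb of a TSS in both libraries, Nr5a1 and Cyp11a1, and none was found in either library at Mc2r, Cyp11b1 and Hsd3b1. Of the medulla markers, 2 of 6 did, Chga and Chgb, while Th, Dbh and Pnmt had none in either library. The counts in both libraries were 1 of 4 for endothelial, 1 of 4 for leukocyte, 2 of 4 for kidney, 0 of 3 for liver and 2 of 4 for capsule and fibroblast markers. Of all protein-coding genes, 61.3% had such a peak in both libraries. Over markers with a peak in the library, the median percentile was 71.8 and 86.2 for cortex and 72.2 and 94.2 for medulla. It was 60.7 and 57.5 for endothelial, 24.2 and 16.7 for leukocyte and 21.6 and 33.5 for kidney markers. For capsule and fibroblast markers it was 77.1 and 86.7, and for liver 9.81 in replicate 2 alone. In whole tissue, a weak peak in all cells and a strong peak in few cells cannot be told apart, and the part of any cell type in the values below was not tested.

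All 3 NR4A genes had an accessible promoter in both libraries. Each had a peak within 1 kb of an annotated TSS, as did 61.3% of protein-coding genes, and each also had one within 1 kb of its most upstream TSS, as did 56.8%. The 3 promoters differed in strength. Taking the strongest peak within 1 kb of any TSS of the gene, Nr4a1 reached 3.43 in replicate 1 and 9.87 in replicate 2. Nr4a2 had 2.00 and 3.60, and Nr4a3 had 1.42 and 4.13. Nr4a1 was thus highest in both libraries, and the order of Nr4a2 and Nr4a3 was not the same in the 2 libraries. This order depends on which peaks count as promoter peaks. With the most upstream TSS of each gene alone, Nr4a1 had 1.58 and 2.37, below Nr4a2 in both libraries and lowest of the 3 in replicate 2. With a window of 2.5 kb around any TSS, Nr4a3 had 2.42 and 5.97, through its upstream region, and exceeded Nr4a2 in both libraries, while Nr4a1 stayed highest.

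The percentile among all peaks of a library was 95.7 and 99.2 for Nr4a1, 82.0 and 86.6 for Nr4a2, and 70.4 and 89.1 for Nr4a3. The ranges of Nr4a2 and Nr4a3 overlapped, and that of Nr4a1 lay above both. Promoter peaks are mostly strong, so the same values were also set against other promoters. Among the 13535 genes with a TSS peak in replicate 1 and the 14433 in replicate 2, the median signal of the strongest TSS peak was 2.08 and 4.03. Nr4a1 exceeded 85.0% and 95.2% of those genes. Nr4a2 exceeded 47.3% and 44.3%, and Nr4a3 exceeded 29.8% and 51.2%, so with any TSS within 1 kb only Nr4a1 stood above the middle of accessible promoters in both libraries.

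**Figure D1:**
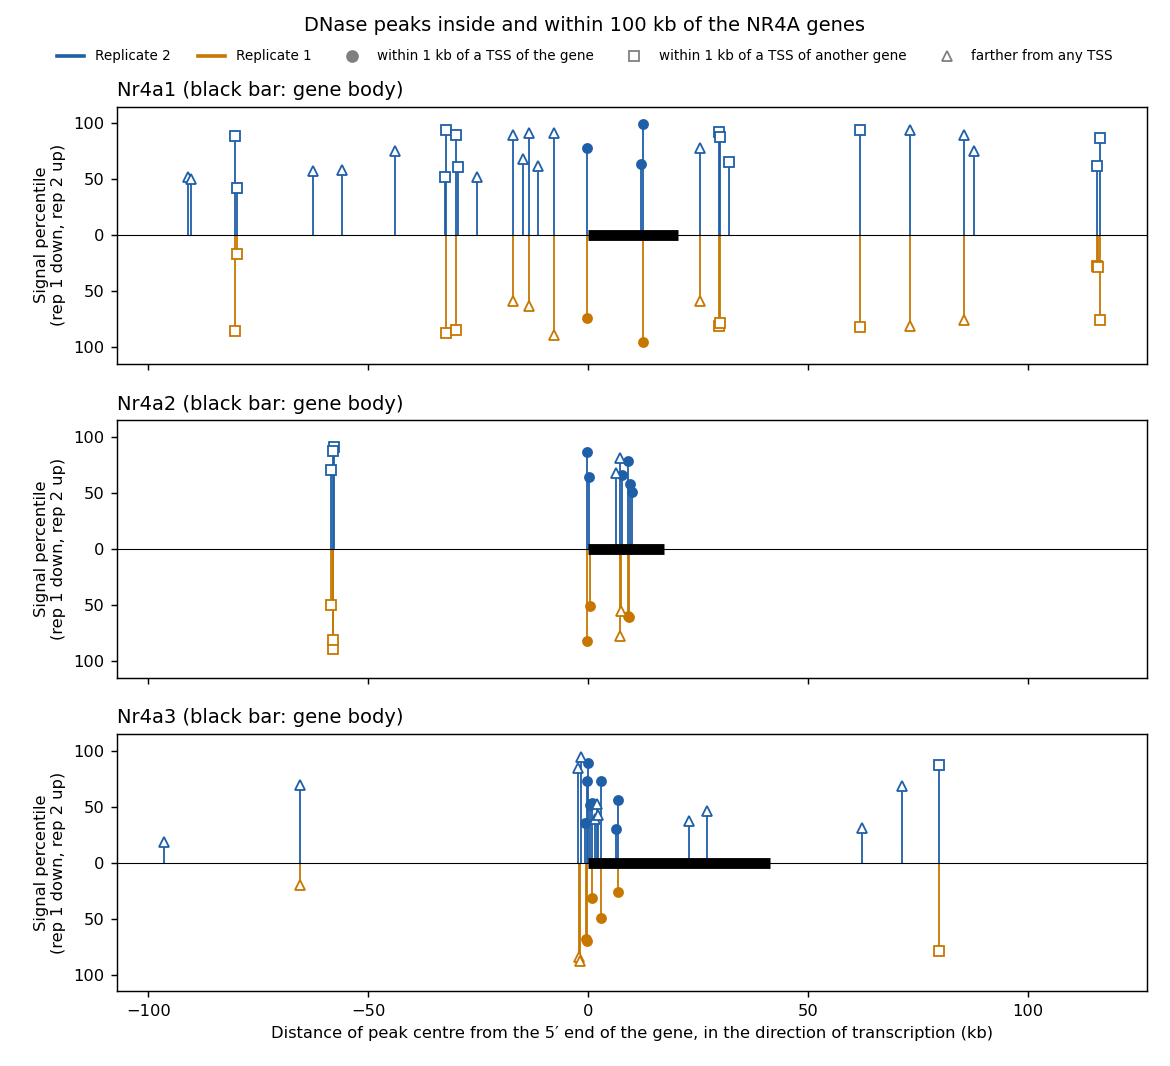
Peaks inside and within 100 kb of each NR4A gene, by the distance of the peak centre from the 5′ end of the gene in kb (x axis) and the percentile of the signal within its library (y axis, replicate 2 upward and replicate 1 downward). Symbols separate peaks near a TSS of the gene, near a TSS of another gene and elsewhere; Nr4a1 has 18 and 30 peaks spread over its window, Nr4a2 has 9 and 11 in a pair of clusters, and Nr4a3 has 9 and 20, gathered around its 5′ end.

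Nr4a1, also called Nur77, lies at chr15:101254269-101274795 on the plus strand (ENSMUSG00000023034.7) and has 3 annotated TSSs. The strongest peak of the locus sat at the second of these, at 101266846, where transcripts Nr4a1-201 and Nr4a1-203 begin. Its centre lay 12.5 kb downstream of the 5′ end of the gene in both libraries. The peak ran from 101266581 to 101266880 in replicate 1 and to 101266860 in replicate 2, so it covered the TSS in both. Its lowest deposited false discovery rate was 1.27e-15 in replicate 1 and 1.71e-44 in replicate 2. In replicate 2 alone, a weaker peak of 1.40 lay 426 bp before this TSS. The most upstream TSS, at 101254269, where Nr4a1-202 begins, was accessible but weaker. Its peak ended 9 bp before the TSS in replicate 1, with a signal of 1.58, and 69 bp before it in replicate 2, with 2.37. The TSS at 101272861, of the retained-intron transcript Nr4a1-204, had no peak within 5981 bp in replicate 1 and 6001 bp in replicate 2. The TSS inside the gene was therefore the one with the highest signal, and 2 of 3 TSSs had a peak within 1 kb in both libraries.

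Nr4a2, also called Nurr1, lies at chr2:57106830-57124003 on the minus strand (ENSMUSG00000026826.13). It has 4 annotated TSSs, and 3 had a peak within 1 kb in both libraries. At the most upstream one, 57124003, the strongest peak lay beside the TSS and not over it, 98 bp upstream in replicate 1 with a signal of 2.00 and 78 bp upstream in replicate 2 with 3.60. A second, weaker peak followed on the downstream side in both libraries, with 0.947 in replicate 1, 266 bp from the TSS, and 1.42 in replicate 2, 23 bp from it. The TSS base of Nr4a2-203 and Nr4a2-206 thus fell in a gap between peaks. The lowest deposited false discovery rate within 100 bp of it was 0.00404 in replicate 1 and 5.52e-08 in replicate 2.

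The other accessible TSSs of Nr4a2 lie inside the gene. At 57115038, where Nr4a2-201 and Nr4a2-205 begin, a peak covered the TSS in both libraries, at 1.11 in replicate 1 and 2.45 in replicate 2. These stood at percentiles 59.5 and 79.0. Nearby, the TSS of Nr4a2-204 at 57114373 lay 129 bp from a peak of 1.13 in replicate 1 and under a peak of 1.21 in replicate 2. The TSS of Nr4a2-202, at 57113072, had its nearest peak 1430 bp away in replicate 1 and 969 bp away in replicate 2, with a signal of 1.02. A further replicate 2 peak of 1.52 began 923 bp upstream of the TSS at 57115038, and the replicate 1 peak under it, of 1.03, began 1325 bp upstream. The upstream peak of Nr4a2 was the strongest of its TSS peaks in both libraries, unlike at Nr4a1, where the inner TSS led.

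Nr4a3, also called Nor1, lies at chr4:48045153-48086447 on the plus strand (ENSMUSG00000028341.9). All 4 of its annotated TSSs had a peak within 1 kb in both libraries, though a peak covered only the first of them. At 48045153, where Nr4a3-201 begins, the peak signal was 1.42 in replicate 1 against 4.13 in replicate 2. The shape differed between the libraries: replicate 1 had a broad peak of 620 bp with a second one of 240 bp nested in it, and replicate 2 had a peak of 200 bp over the TSS and a separate one of 140 bp upstream. The nested and the separate peak had signals of 1.35 and 1.93. The same peaks lay 31 bp and 51 bp from the TSS of Nr4a3-204 at 48045231. The TSS of Nr4a3-203 at 48049114 had a peak of 0.930 at 859 bp in replicate 1 and of 1.90 at 754 bp in replicate 2. That of Nr4a3-202 at 48051248 had its nearest peak at 771 bp with 0.640 in replicate 1 and at 73 bp with 0.625 in replicate 2. Within 1 kb of these TSSs, replicate 2 also had peaks of 0.721, 1.04, 1.06 and 1.14, and of these the last pair overlapped replicate 1 peaks, of 0.691 and 0.640. The nearest peaks of Nr4a3-203 and Nr4a3-202 thus had signals at or below the median peak of their library, apart from 1.90 in replicate 2.

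**Figure D2:**
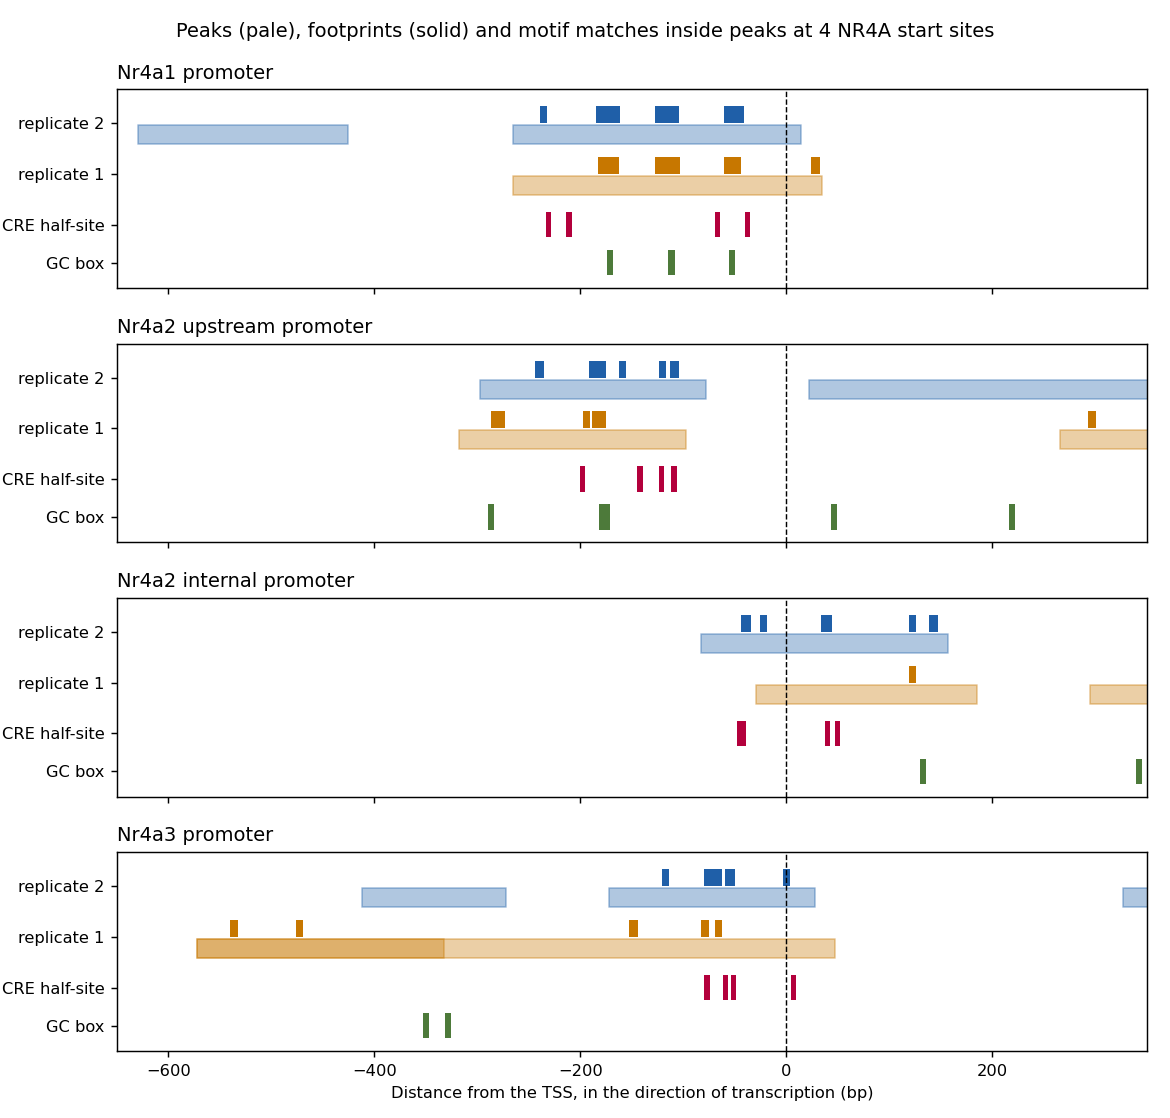
Peaks (pale bars), footprints (solid bars) and matches to the CRE half-site and the GC box inside peaks, by distance from the TSS in bp (x axis), for 4 NR4A start sites in the 2 libraries. The peak covers the TSS at Nr4a1, at the internal promoter of Nr4a2 and at Nr4a3, and lies 98 bp and 78 bp upstream of it at the upstream promoter of Nr4a2.

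The surroundings of the 3 genes differed in how many peaks they held and where. The windows were of similar length, 220527 bp for Nr4a1, 217174 bp for Nr4a2 and 241295 bp for Nr4a3. The Nr4a1 window held 18 peaks in replicate 1 and 30 in replicate 2, that of Nr4a2 held 9 and 11, and that of Nr4a3 held 9 and 20. Of the replicate 2 peaks, 17 at Nr4a1, 9 at Nr4a2 and 9 at Nr4a3 overlapped one in replicate 1 and are called shared. In replicate 1, 35 of 36 peaks had a counterpart in replicate 2, 97.2% against 83.9% of all replicate 1 peaks. In replicate 2, 35 of 61 had one in replicate 1, 57.4% against 44.9%. The replicate 1 exception was a peak of 0.657 near Krt80. The 26 further peaks found in replicate 2 alone had signals from 0.431 to 2.06.

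Set against the same count around every protein-coding gene, where the median was 7 shared peaks, 90.6% of genes had fewer than Nr4a1 and 59.2% had fewer than Nr4a2 and than Nr4a3. Windows differ in how many other genes they hold. The Nr4a1 window contains 11 other genes, 5 of them protein-coding, against 4 with no protein-coding one for Nr4a2 and 2 with 1 for Nr4a3. Counting only shared peaks more than 1 kb from any TSS, Nr4a1 had 6, Nr4a2 had 1 and Nr4a3 had 3, against a median of 2. Fewer such peaks were found at 86.8%, 22.6% and 56.3% of genes. Inside the gene body the order turned around, with 1 shared peak for Nr4a1, 5 for Nr4a2 and 4 for Nr4a3, against a median of 1. Fewer were found at 36.7%, 95.8% and 92.1% of genes. Nr4a1 thus had 1 of 17 shared peaks inside the gene, Nr4a2 had 5 of 9 and Nr4a3 had 4 of 9.

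The peaks outside Nr4a1 lay on both sides of the gene. Besides the promoter, the shared peaks with the highest mean percentile at this locus were at a TSS of AU021063, at 2.41 in replicate 1 and 5.52 in replicate 2, and in a distal region 7.7 and 7.8 kb upstream of the gene, chr15:101246401-101246720 in replicate 1, with 2.60 and 4.69. The AU021063 peak was centred 32.3 kb upstream of the 5′ end of Nr4a1. Downstream, a peak at a TSS of Gm49499, 61.7 kb from the 5′ end of Nr4a1, had 1.99 and 5.79. A distal peak 73.2 kb from the 5′ end, chr15:101327341-101327540 in replicate 1, had 1.94 and 5.76. Each of these exceeded the signal at the most upstream TSS of Nr4a1 in both libraries. None exceeded the peak at the TSS inside Nr4a1. Of the 15 distal peaks in replicate 2, 6 were also found in replicate 1, all of them with a signal of at least 2.37 in replicate 2.

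At Nr4a2 the shared peaks fell into 2 clusters. The first holds the peaks of the gene itself. It includes an intronic peak at chr2:57116741-57117020 in replicate 1, 7.1 kb downstream of the 5′ end, with a signal of 1.73 and 2.71. Counted on replicate 2 peaks, this was the only shared distal peak of Nr4a2. The second cluster, about 58 kb upstream, covers TSSs of the genes BB557941 and 4930555B11Rik. Its strongest peak, chr2:57181721-57182180 in replicate 1, had 2.64, and 2 replicate 2 peaks that overlap it had 4.60 and 3.77. These signals exceeded those at the promoters of Nr4a2 in both libraries. No peak in either library lay between the clusters, or downstream of Nr4a2 within 100 kb.

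At Nr4a3 the strongest peak was not at a TSS. It lay 1.9 kb upstream in replicate 1, at chr4:48042841-48043640, with a signal of 2.42 against 1.42 at the promoter. In replicate 2 the same stretch held a peak at chr4:48043321-48043560 with 5.97 and one at chr4:48042841-48043060 with 3.32, against 4.13 at the promoter. The upstream region thus exceeded the promoter in both libraries through its strongest peak. The other strong shared peak, at chr4:48124821-48125020, is at a TSS of Stx17, which encodes a membrane fusion protein of autophagy, and had 1.80 and 3.70. A distal peak 65.4 kb upstream, chr4:47979656-47979840 in replicate 1, had 0.571 and 1.71. In replicate 2 alone, 8 more distal peaks were found, with signals from 0.431 to 1.63, and 5 of them lay inside the gene.

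Footprints are short stretches, mostly inside peaks, where DNase I cut less than in the bases beside them. The deposited lists give no score per footprint. Those overlapping a peak numbered 37 in replicate 1 and 59 in replicate 2 at Nr4a1, 19 and 21 at Nr4a2, and 20 and 33 at Nr4a3. Of the replicate 1 footprints, 23 of 37 at Nr4a1, 9 of 19 at Nr4a2 and 6 of 20 at Nr4a3 were overlapped by a replicate 2 footprint. Together these are 38 of 76, against 51.9% of all replicate 1 footprints in peaks. Most peaks held at least 1 footprint, and those without any were 1 and 2 at Nr4a1, 1 and 4 at Nr4a2, and 1 and 5 at Nr4a3.

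The RefSeq promoter of each NR4A gene is rich in CRE half-sites, which does not hold at every accessible TSS. In the 300 bp from 250 bp before to 50 bp after the start of each gene in the RefSeq promoter table for GRCm38.p6, in which all 3 genes were matched, Nr4a1, Nr4a2 and Nr4a3 each held 4 half-sites on either strand. Among all 32851 promoters of that length in the table, 20.8% held at least 1 and 0.231%, or 76 promoters, held at least 4. None of the 3 NR4A windows held the exact CRE, which 1.79% of all promoters held. The same stretch was also searched at the accessible GENCODE TSSs. It held 2 half-sites at Nr4a1-202, 3 at Nr4a2-201 and 0 at Nr4a2-204. At Nr4a3 it held 4 for Nr4a3-201 and Nr4a3-204, and 0 for Nr4a3-203 and Nr4a3-202. The 3 RefSeq promoters are also rich in CpG, and the half-site contains CpG. The ratio of observed to expected CpG was 0.913 for Nr4a1, 1.04 for Nr4a2 and 0.866 for Nr4a3, against a median of 0.384. The Nr4a3 RefSeq window, chr4:48045055-48045354, was set from a start downstream of the Nr4a3-201 TSS at 48045153. At that TSS the ratio was 0.947. Among the 5067 promoters with a ratio at least as high as that of the Nr4a3 RefSeq window, 41.6% held at least 1 half-site. At least 4 were held by 1.14%, or 58 promoters. A match of letters is a description and does not show that a factor binds.

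**Figure D3:**
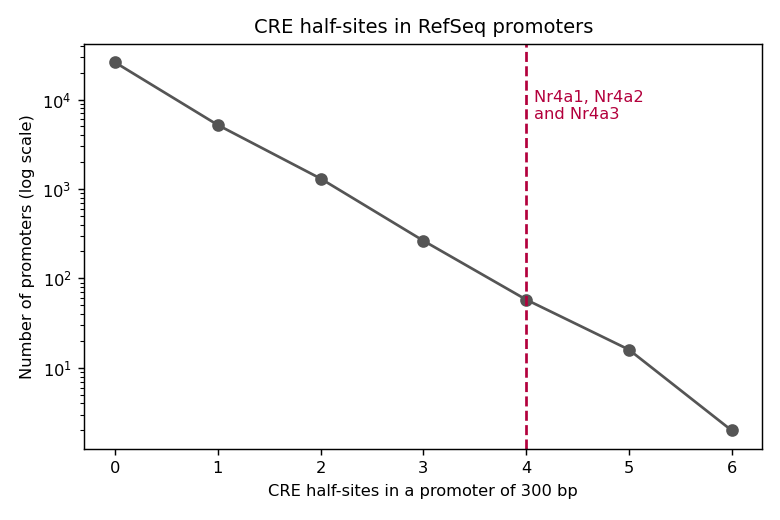
Number of RefSeq promoters of 300 bp (y axis, log scale) by the number of CRE half-sites they hold (x axis), over 32851 promoters. The dashed line marks Nr4a1, Nr4a2 and Nr4a3, which hold 4 each; 58 promoters hold exactly 4, 16 hold 5 and 2 hold 6.

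The share of peaks with a CRE half-site at the 3 loci was above that of all peaks in both libraries, a difference that was not tested. The half-site contains CpG, and all peaks were not matched to these in GC content or distance from a TSS. In replicate 1, 11 of 36 peaks held a half-site, 30.6% against 17.2% of all peaks. In replicate 2, 13 of 61 did, 21.3% against 12.1%. The counts per gene were 5 and 6 peaks at Nr4a1, 3 and 3 at Nr4a2, and 3 and 4 at Nr4a3. In replicate 1, 2 of the peaks at Nr4a3 are nested and share 1 half-site. The exact CRE was rare, in 1 of 36 peaks in replicate 1 against 1.34% of all peaks, and in 2 of 61 in replicate 2 against 0.827%.

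The exact CREs lay at different kinds of places in the different genes. At Nr4a1 it was in a distal peak beyond the 3′ end of the gene, centred 25.5 kb from its 5′ end and printed above as the downstream region, at 1.09 in replicate 1 and 2.37 in replicate 2. The nearest TSS of Nr4a1, at 101272861 and without a peak, lay 6820 bp from the replicate 2 peak. A shared peak at a TSS of Atg101, beginning at 101283841, was nearer. Which gene the region serves was not tested. The CRE occupies 101279731 to 101279738, and no footprint touched it in either library. The replicate 1 peak is missing from the stricter peak list of that library. At Nr4a2 the exact CRE was in the internal promoter, at 57115078 to 57115085, 47 to 40 bp upstream of the TSS. It lay inside the replicate 2 peak and outside the replicate 1 peak, and a replicate 2 footprint from 57115073 to 57115081 covered 4 of its bases. At Nr4a3 no peak held an exact CRE. The half-sites in its promoter peak include 2 places that match the CRE with 1 mismatch.

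How footprints lay over the half-sites differed between the promoters and, at each promoter, between the libraries. Differences between the genes cannot be told apart from those between the libraries. At the Nr4a1 promoter the 4 half-sites, the nearest of them at 69 to 65 bp and at 40 to 36 bp before the TSS, were touched by no footprint in replicate 1, and 1 was touched in replicate 2, over 1 base. The 3 GC boxes of that promoter (GGGCGG or CCGCCC, the letters bound by SP factors) were touched by footprints in both libraries. At the upstream promoter of Nr4a2, the half-sites at 111 to 107 bp and 123 to 119 bp before the TSS lay wholly under replicate 2 footprints, and neither was touched in replicate 1. The half-site at 200 to 196 bp was touched over 2 bases in replicate 1 alone. At the Nr4a3 promoter, the half-site at 79 to 75 bp before the TSS was under a footprint in both libraries, over 4 bases in replicate 1 and 5 in replicate 2. It was the only half-site of the printed promoters touched in both. The half-sites at 61 to 57 bp and 53 to 49 bp were touched in replicate 2 alone, over 3 and 4 bases.

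Over all peaks of the 3 loci the overlap of half-sites with footprints was not stable between the libraries. In replicate 1, 2 of 27 half-site places were touched by a footprint, 7.41% against 27.2% of such places in all peaks. In replicate 2, 13 of 32 were touched, 40.6% against 26.1%. The NR4A share thus lay below the share of all peaks in one library and above it in the other. For GC boxes, 13 of 30 places were touched in replicate 1, 43.3% against 29.1%, and 11 of 40 in replicate 2, 27.5% against 34%, which also changed sides. By gene, the half-site places touched were 0 of 12 and 3 of 14 at Nr4a1, 1 of 8 and 6 of 10 at Nr4a2, and 1 of 7 and 4 of 8 at Nr4a3. Each exact CRE counts here as 2 overlapping half-sites.

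Other motifs were searched on both strands in the same peaks. The NBRE, AAAGGTCA, which the NR4A receptors bind as single molecules, was found in none of the 36 and 61 peaks, and 0.645% and 0.704% of all peaks held it. The NR5A motif TCAAGGTCA, bound by steroidogenic factor 1, which ends in the same letters, was also found in none, against 0.313% and 0.415%. The EGR motif GCGTGGGCG, the SRF CArG box and the full NFI motif had no match either, and each was held by less than 1% of all peaks in either library. No match says only that these letters are not in these peaks.

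A MEF2 match was present in the peak at the most upstream TSS of Nr4a1, from 101254074 to 101254083, and a footprint touched it in both libraries. A second MEF2 match forms the first 10 bases of the printed Nr4a1 promoter and was touched by none. Of all peaks, 0.193% in replicate 1 and 0.176% in replicate 2 held a MEF2 match. At Nr4a3, a MEF2 match lay between the replicate 2 peaks of the upstream region, inside the broad replicate 1 peak. The AP-1 motif TGANTCA was found at 1 place in replicate 1 and 2 in replicate 2 at Nr4a1 and at 2 places in each library at Nr4a3, both in the distal peak 65.4 kb upstream. Over the 3 loci 2 of 36 and 3 of 61 peaks held it, near the 5.18% and 5.78% of all peaks. Nr4a2 had no match to AP-1 or to the MEF2 string searched. Its printed upstream promoter does hold a stretch that differs from the second Nr4a1 match in the first base alone. That stretch was not counted, and a looser MEF2 string was not searched, so a MEF2 site at Nr4a2 is not excluded.

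Every listed gene known to act in the induction of NR4A genes was accessible at some TSS with the main peak lists. Of the 19 genes of the induction list, which covers CREB family factors and their coactivators, the kinase PKA, SRF, the MEF2 factors and the kinases and histone deacetylases that control them, 19 had a TSS peak in both libraries. The share among all protein-coding genes was 61.3%. With the stricter lists the count was 17. With the most upstream TSS alone it was 16, without Mef2c, Camk4 and Hdac7. Over the 19 genes, the median percentile of the strongest TSS peak was 90.9 in replicate 1 and 95.0 in replicate 2. Over the 13346 genes accessible in both it was 83.6 and 90.0. Camk4 was weakest of the 19, with 0.580 and 0.976, at percentiles 20.8 and 49.4. Hdac4, a deacetylase that holds MEF2 inactive, had a signal of 4.61 and 10.5. Creb1, which encodes CREB, had 4.78 and 8.21, and Crtc1, a CREB coactivator, had 3.95 and 9.30. The 3 retinoid X receptors, with which Nr4a1 and Nr4a2 can pair, all had a TSS peak in both libraries, again against 61.3%. Rxrb was strongest with 4.43 and 9.68, then Rxra with 1.57 and 2.74 and Rxrg with 0.478 and 0.985.

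The median promoter percentile of other immediate early genes lay between that of Nr4a1 and those of Nr4a2 and Nr4a3, with single genes on either side. Of 13 such genes, 12 were accessible in both libraries, against 61.3% of all protein-coding genes. Egr3 had a TSS peak of 1.55 in replicate 2 alone. Over those with a peak in the library, the median percentile was 94.4 and 97.3. Over the 13346 genes accessible in both libraries it was 83.6 and 90.0. Egr1, a zinc finger factor, had a higher signal than Nr4a1 in both libraries, 3.85 and 10.4, while Fos, a subunit of AP-1, stood below Nr4a2 in both with 1.70 and 2.72. Sik1, a kinase that restrains CREB coactivators, had 4.04 and 7.72, and Jun, which pairs with Fos, had 3.88 and 7.81.

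Genes named as targets of the NR4A receptors had few TSS peaks. Of the 6 steroid target genes listed, 0 had one in both libraries. In replicate 2 alone, a peak of 2.73 was found at Star, whose protein moves cholesterol into mitochondria, one of 1.56 at Cyp17a1 and one of 1.12 at Cyp21a1. Cyp11b2, the aldosterone synthase, had one of 0.298 in replicate 1 alone, and Hsd3b1 and Akr1c18 had none in either library. Of 5 catecholamine and dopamine genes, 2 had a TSS peak in both. Slc6a3, the dopamine transporter, had 1.07 and 1.93, and Ddc, which forms dopamine from L-DOPA, had 0.606 and 0.862. Slc18a2 and Aldh1a1 had peaks of 0.756 and 0.422 in replicate 2 alone. Th, which makes L-DOPA, had none in either library. These counts are read against 61.3% of all protein-coding genes, and the defining cortex and medulla markers without a peak, named above, are in part the same genes.

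**Figure D4:**
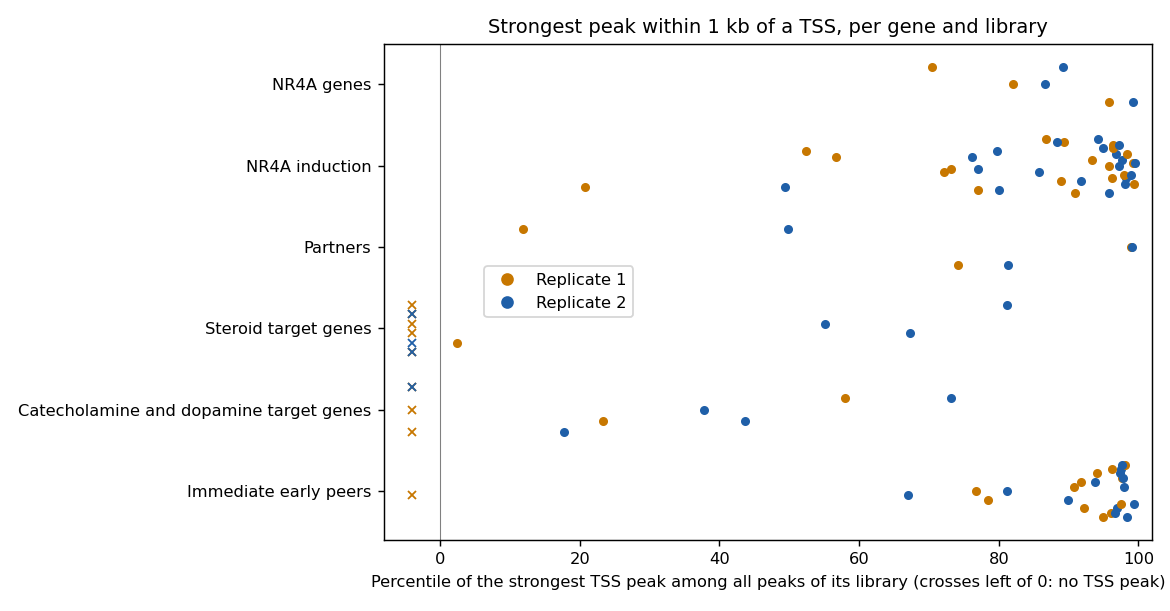
Percentile of the strongest peak within 1 kb of a TSS among all peaks of its library (x axis), for the NR4A genes and 5 lists of related genes (y axis), 1 point per gene and library; crosses mark genes with no such peak. Nr4a1 stands at 95.7 and 99.2, while the 6 steroid target genes have crosses in at least 1 library each.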

How the data were processed

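DNase-seq was deposited for 2 libraries of adrenal gland, each with 2 peak lists, a footprint list and a list of false discovery rates, all on mm10 as the labels state. Each peak list belongs to 1 library, and column 7 of the deposited lists is a signal value of each peak as the authors gave it, with scaling not given in the sources. The deposited list of false discovery rates holds p-values adjusted over the genome, below 0.05 only. Deposited footprints carry a p-value of 0.01 in every entry. The peak caller, footprint tool and read depth are likewise not stated there, so counting error could not be computed. The labels name sequencing instruments for replicate 2 and none for replicate 1.

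The longer peak list of each library was the main set and the shorter one the stricter set. Windows were each gene with 100 kb to either side in GENCODE M21. A peak counted as shared when a peak of the other library overlapped it by at least 1 bp, as a TSS peak when within 1 kb of an annotated TSS, and otherwise as distal. A TSS was called accessible with such a peak in both libraries. Percentiles were taken among all peaks of a library. Motifs were exact strings searched on both strands of GRCm38.p6, in all peaks as background. A footprint touched a motif when 1 base overlapped. The code was tested on simulated data and used Python 3.11.15, pandas 2.3.3, numpy 2.4.6, pysam 0.24.0 and matplotlib 3.10.9.

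The NR4A genes and the lists of related genes and markers were chosen with earlier results of these data known. At each locus the text names every peak within 1 kb of a TSS of the gene, the 5 shared peaks of highest mean percentile and every peak with an exact CRE. From each gene list it names the 3 genes of highest mean percentile and those without a TSS peak, with further members for completeness. With 2 libraries of 1 group, no test was made and no likeness of pattern to other genes was computed. Nothing in the labels beyond the words biological replicate says that the libraries came from separate animals, so differences between them may be technical.

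Alternatives were each library alone, the stricter lists, 50% reciprocal overlap, equal peak numbers, other windows and other forms of the CRE. Comparing with CpG-rich promoters was chosen after seeing the data.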

Additional observations from a re-analysis of the deposited data

How the results depend on the processing

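Counting peaks in the gene body alone moved more of these values than any other alternative did. The number of shared peaks at Nr4a1, 17, ranged from 18 to 30 in the libraries taken alone, and was 11 within 50 kb and 1 in the gene body. At Nr4a2, 9 became 5 with the stricter lists, with 50% reciprocal overlap and in the gene body. At Nr4a3, 9 ranged from 9 to 20 in the libraries taken alone, was 3 with reciprocal overlap, where the broad replicate 1 peaks no longer match, and 4 in the gene body. The percent of genes with fewer shared peaks went from 90.6 to 36.7 for Nr4a1, from 59.2 to 95.8 for Nr4a2 and from 59.2 to 92.1 for Nr4a3 in the gene body, and to 25.8 for Nr4a3 with reciprocal overlap. Footprints of replicate 2 in shared peaks fell in the gene body from 42 to 4 at Nr4a1, from 20 to 10 at Nr4a2 and from 24 to 11 at Nr4a3, in the stricter lists to 12 at Nr4a2, and with reciprocal overlap to 7 at Nr4a3. Exact CREs in shared peaks, 1 at Nr4a1, 1 at Nr4a2 and 0 at Nr4a3, became 0 at Nr4a1 and 0 at Nr4a2 with the stricter lists, 0 at Nr4a1 in the gene body, and ranged from 0 to 1 at Nr4a2 in the libraries taken alone. With 1 mismatch allowed they were 4 at Nr4a1 and 3 at Nr4a3, and the half-site gave 13, 10 and 7. Accessible TSSs fell with the stricter lists from 3 to 1 at Nr4a2 and from 4 to 2 at Nr4a3, and to 2 at Nr4a3 within 500 bp. With the most upstream TSS alone, at most 1 could be counted per gene by construction, and each gene had 1. The share of promoters with at least 4 half-sites went from 0.231% to 1.14% among CpG-rich promoters.

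No paired analysis was possible because the 2 libraries belong to 1 group and no result comes from a test. Beyond changes made by a setting's own construction, the cause was not tested. Of the 214 values computed, counting 29 main values, 142 were labelled as the same under an alternative and 43 as moved. Values labelled as the same could still shift. The percent of genes with fewer shared peaks than Nr4a2, 59.2, ranged among them from 41.1 with reciprocal overlap to 63.9 with equal peak numbers. Read depth is unknown, so how depth bears on the 26 peaks found in replicate 2 alone was not tested.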
